A study of Homo sapiens with 15 samples.

Results

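SOX9 is a DNA-binding transcription factor of the SOX family, made in the stem and Paneth cell zone at the base of intestinal crypts and in cartilage, where it switches on collagen genes of the matrix. It is often altered in colorectal cancer, and the series asks, by its title, how SOX9 bears on a stem-like state and on differentiation in that disease. The data described here are the libraries of cells induced to make the SOX9 mutant M379, set against cells induced to make GFP. They were chosen by their sample labels, and they are 6 of the 15 libraries of the series, 3 for each group. Of 60671 genes in the count table, 16160 passed the expression filter and were tested.

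HT115, the host line, is an established human colorectal cancer cell line. Both groups carried a gene under doxycycline control and received doxycycline at 0.5 µg/ml for 24 h. The controls made GFP, and the M379 group made a V5-tagged mutant SOX9. The sources used here do not say what change M379 is, whether the cells were a clone or a pool, or what level the protein reached. The other 3 groups, with 3 libraries each, made V5-tagged wild-type SOX9 (SOX9_WT) or the V5-tagged mutants M228 and M303, of which M303 is described as truncated. Whether the 3 libraries of a group are separate cultures is not stated, and the p-values then rest on a library-to-library spread that may be technical.

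The GFP libraries held 3054755, 12657176 and 16699998 reads and the M379 libraries between 14381665 and 17112863. Levels are given as CPM, reads scaled to a common library size, and the limit below which 0 reads can hide a gene (3 reads, counting error only) was 0.982 CPM in GFP replicate 1 and 0.175 to 0.237 CPM in the other 5 libraries. GFP replicate 2 stood apart: ribosomal protein genes took 7.21% of its reads, and 3.71% to 4.91% of those in the other 14 libraries of the series. The median dispersion within GFP was 0.0975, against 0.0155 within M379. All 15 markers of colorectal epithelium stood above 10 CPM in each of the 6 libraries, with a summed level of 15180 to 27360 CPM in GFP and 16500 to 20940 CPM in M379. All 10 fibroblast, 8 endothelial and 10 immune markers stayed below 5 CPM in every one of them. Their summed levels in GFP and M379 were 3.56 to 3.93 and 3.97 to 4.83 CPM (fibroblast), 1.58 to 2.40 and 1.48 to 2.36 (endothelial) and 1.26 to 2.29 and 0.877 to 1.32 (immune), and PDGFRA, CDH5 and CD3E had no read in any of the 6. Of 8 neural and glial markers, SYT1 stood above 10 CPM throughout and the other 7 below 5.

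M379 induction was followed by few calls. SOX9 itself rose, with the highest fold change of the 6 called genes, and COL9A3, SPINK5, SHROOM4, CTSV and ARHGEF37 rose too, while no gene fell at an adjusted p under 0.05. These 6 genes are 0.0371% of those tested. The test was edgeR's quasi-likelihood test, two-sided, fitted to all 15 libraries and adjusted over all tested genes by the Benjamini-Hochberg method. At an unadjusted p under 0.05 there were 562 higher genes (3.48% of those tested) and 532 lower genes (3.29%), and the median log2 fold change of all genes was 0.009. Below, log2 fold changes are M379 minus GFP unless another pair is named, and are given with their standard error.

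SOX9 (ENSG00000125398, GRCh38 chromosome 17, 72121020 to 72126416, plus strand) checks the labels. Its level was 97.6, 100.8 and 158 CPM in the GFP libraries and 2034, 2329 and 2282 CPM in the M379 libraries. The lowest M379 library thus lay far above the highest GFP library, and the log2 fold change was 4.215 ± 0.20 (edgeR adjusted p = 1.44e-08), an 18.6-fold higher level. Gene counts do not separate reads of the induced gene from those of the cell's own SOX9. The level was close to that of M228 (2105 ± 250 CPM, SD, n = 3; log2 difference of M379 from M228 0.07 ± 0.17, edgeR adjusted p = 1). It was below that of M303 by 0.44 on the log2 scale (SE 0.18, edgeR unadjusted p = 0.0227, adjusted p = 1) and above that of SOX9_WT (213 ± 28.6 CPM). The SOX9_WT libraries held 243, 210 and 186 CPM. SOX9 was not called in SOX9_WT against GFP (0.84 ± 0.18, edgeR adjusted p = 0.110), so this check is weak for that group. For M379 against GFP, leaving out each of the 6 libraries in turn kept the call every time, with log2 fold changes of 4.09 to 4.48.

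COL9A3 (ENSG00000092758, chromosome 20, 62816244 to 62841159, plus strand) encodes a chain of type IX collagen, a cartilage collagen whose genes SOX9 activates in chondrocytes. It held 5, 36 and 32 reads in the GFP libraries and 173, 249 and 365 in the M379 libraries. In CPM, the levels were 1.52, 3.07 and 1.96 in GFP and 11.6, 16.2 and 21.7 in M379, so that the groups lay apart. The log2 fold change was 2.83 ± 0.36 (edgeR adjusted p = 0.00724), a 7.13-fold higher level from a low base. Each of the 6 fits that omitted a library called COL9A3 again, at 2.58 to 3.15.

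SPINK5, SHROOM4, CTSV and ARHGEF37 rose from 15.3 CPM or less. SPINK5 (ENSG00000133710, chromosome 5, 148025683 to 148137382, plus strand) encodes LEKTI, a secreted inhibitor of kallikrein proteases best known from skin. It was at 1.52, 2.64 and 3.85 CPM in GFP and at 8.86, 12.9 and 11.4 CPM in M379, a log2 fold change of 1.90 ± 0.26 (edgeR adjusted p = 0.0104). CTSV (ENSG00000136943, chromosome 9, 97029677 to 97039643, minus strand) encodes cathepsin V, a cysteine protease of lysosomes. It was at 2.13, 5.11 and 5.51 CPM in GFP and nearly level in M379, at 11.3, 11.3 and 10.9 CPM, a log2 fold change of 1.26 ± 0.20 (edgeR adjusted p = 0.0487). SHROOM4 (ENSG00000158352, chromosome X, 50591647 to 50814302, minus strand) belongs to a family of actin-binding proteins that shape cells. It was at 3.35, 2.56 and 3.37 CPM in GFP and at 8.79, 7.15 and 8.92 CPM in M379, a log2 fold change of 1.44 ± 0.23 (edgeR adjusted p = 0.0487). ARHGEF37 (ENSG00000183111, chromosome 5, 149551947 to 149634968, plus strand) is named as a guanine nucleotide exchange factor. It was at 17.03, 14.3 and 14.4 CPM in GFP and at 27.2, 30.7 and 27.4 CPM in M379, a log2 fold change of 0.92 ± 0.15 (edgeR adjusted p = 0.0487). For each of these genes every M379 library lay above every GFP library, which was so for 792 of the genes tested (4.9%), while the reverse order held for 621 (3.84%).

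The calls of these genes depend on single libraries. SPINK5 was lost without M379 replicate 2 or 3 (log2 fold change 1.77 and 1.87) and kept in the other 4 fits. CTSV was lost without any 1 of the M379 libraries or GFP replicate 2 (1.25, 1.26, 1.27 and 1.31), and was kept without GFP replicate 1 or 3. SHROOM4 and ARHGEF37 were lost in all 6 fits, at 1.30 to 1.56 and 0.86 to 0.98. All 4 kept their direction and moved by less than 1.5 times. Leaving out GFP replicate 3 gave 12 called genes, leaving out M379 replicate 1 gave 3 and leaving out M379 replicate 2 or 3 gave 2. In the fit of the M379 and GFP libraries alone, with 4 residual degrees of freedom, SOX9 was the only call.

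**Figure D1:**
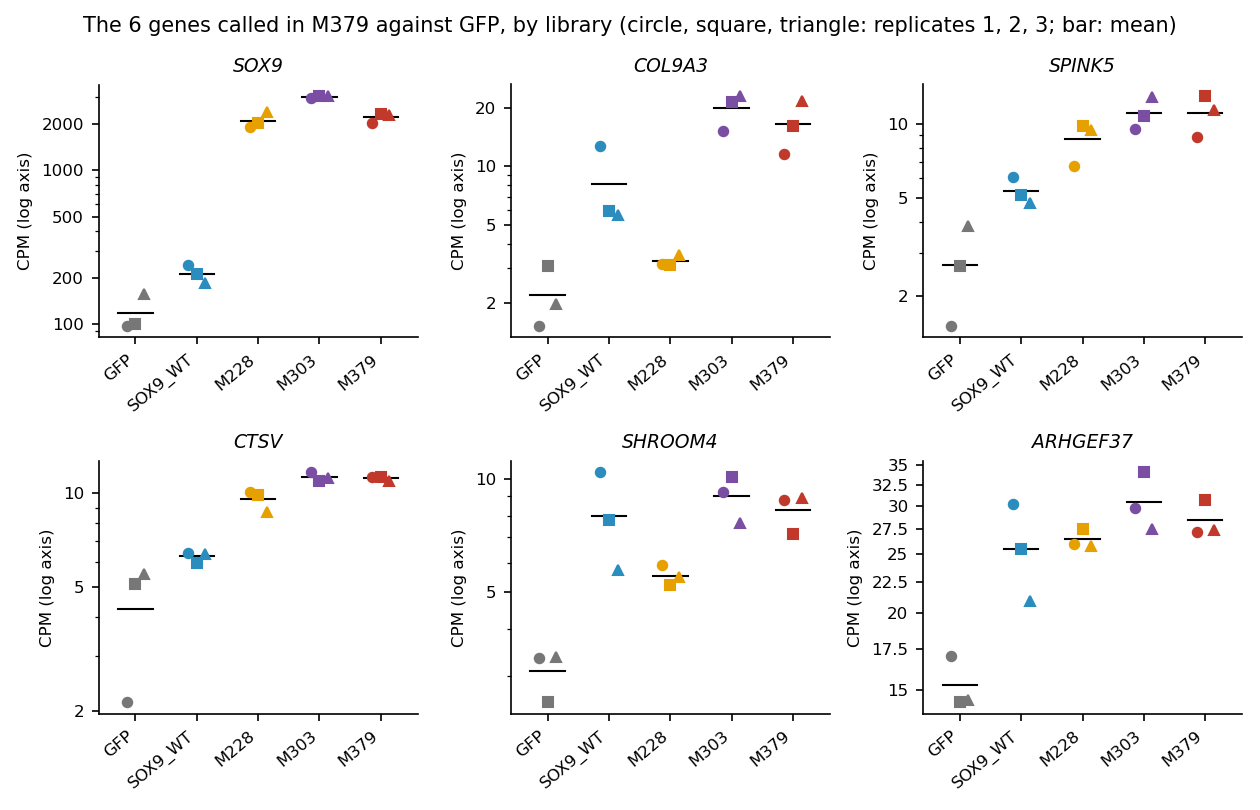
Each panel shows 1 called gene, with the groups on the horizontal axis and the TMM-scaled CPM of each library on a logarithmic vertical axis; circles, squares and triangles are replicates 1, 2 and 3 and bars are means of 3 libraries. The M379 points lie above all GFP points in every panel, and COL9A3 is at 3.11 to 3.50 CPM in M228 against 11.6 to 21.7 CPM in M379.

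**Figure D2:**
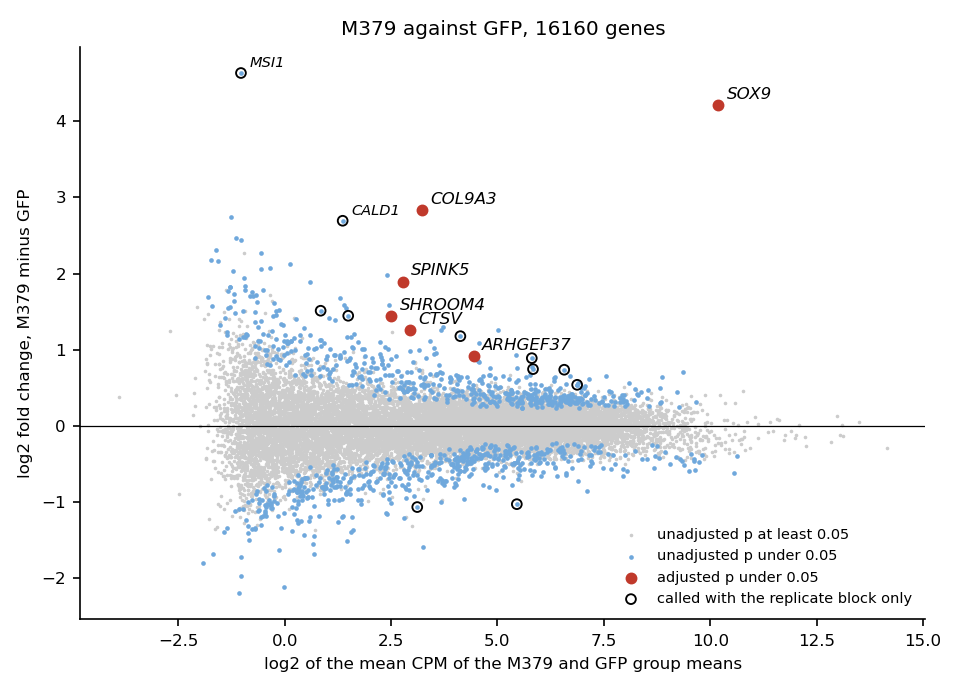
Each point is 1 of 16160 genes, with the log2 of the average of the M379 and GFP mean CPM on the horizontal axis and the log2 fold change, M379 minus GFP, on the vertical axis. The 6 red points are the called genes, all above 0, and open circles mark 11 further genes called when the replicate number was kept as a block.

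The upstream sequences of the genes called above, other than SOX9, were read from RefSeq (GRCh38.p14), which held entries for SPINK5, CTSV, SHROOM4 and ARHGEF37. They are shown so that the letters SOX proteins are known to prefer can be looked for in them. The 250 bases before the start were searched on both strands for AACAAT and for ACAAAG, neither of which contains the other. Over 35116 RefSeq promoters of the same length, 8.98% held AACAAT, 13.7% held ACAAAG and 20.9% held either. ARHGEF37 held 1 match to ACAAAG, in capitals below, 86 bases before the start, and SPINK5, SHROOM4 and CTSV held none. All 4 windows lie within the Ensembl span of their gene, so they precede an internal start, and the gene counts do not say which start was used. The G and C content was 41.6% for SPINK5, 48.8% for SHROOM4, 66.8% for ARHGEF37 and 74% for CTSV. RefSeq also held several windows for CALD1, a gene called only with the replicate block described below. AACAAT lay 92 bases before the start in 1 of them and ACAAAG 61 bases before it in another, and the others held no match. No sequence of CALD1 or CTSV is printed. The sequences, 5′ to 3′ on the strand of the gene, are SPINK5 at chr5:148063730-148063979 (plus strand), SHROOM4 at chrX:50643673-50643922 (minus strand) and ARHGEF37 at chr5:149581248-149581497 (plus strand).
SPINK5: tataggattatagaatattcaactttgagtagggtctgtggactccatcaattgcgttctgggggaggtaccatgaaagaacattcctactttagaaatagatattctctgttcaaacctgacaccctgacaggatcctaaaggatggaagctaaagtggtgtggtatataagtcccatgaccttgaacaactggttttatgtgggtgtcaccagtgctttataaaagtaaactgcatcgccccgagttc
SHROOM4: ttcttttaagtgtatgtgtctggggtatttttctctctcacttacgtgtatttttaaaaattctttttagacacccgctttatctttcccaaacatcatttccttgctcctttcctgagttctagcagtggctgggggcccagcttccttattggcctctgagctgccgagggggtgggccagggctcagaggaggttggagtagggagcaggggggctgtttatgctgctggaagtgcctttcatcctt
ARHGEF37: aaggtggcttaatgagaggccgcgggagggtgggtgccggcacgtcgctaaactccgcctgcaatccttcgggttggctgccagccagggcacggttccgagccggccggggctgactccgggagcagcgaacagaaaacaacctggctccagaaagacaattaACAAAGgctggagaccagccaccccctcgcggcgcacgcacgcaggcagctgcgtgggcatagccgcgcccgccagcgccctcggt

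Libraries with the same replicate number deviated together in M379 and GFP, and with that number as a block edgeR called 17 genes (0.105% of those tested), 15 higher and 2 lower, the 6 above among them. The other 11 were named after their values were seen. CALD1, the actin- and myosin-binding caldesmon, held 4, 2 and 15 reads in GFP and 59, 54 and 95 in M379 (blocked log2 fold change 2.73 ± 0.43, edgeR adjusted p = 0.0333, against 0.0953 without the block). CNN3, a calponin that also binds actin, was at 35.3, 31.4 and 50.6 CPM in GFP and 69.1, 71.6 and 77.8 CPM in M379 (blocked 0.91 ± 0.14, edgeR adjusted p = 0.0307, against 0.142). FURIN, a proprotein convertase that cleaves precursors in the secretory pathway, was at 98.8, 94.2 and 93.6 CPM in GFP and 144, 128 and 144 CPM in M379 (blocked 0.54 ± 0.09, edgeR adjusted p = 0.0389, against 0.152). In all 3, the M379 libraries lay above the GFP libraries, which was so for 4.9% of all tested genes.

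SLC5A1, the intestinal sodium and glucose transporter, was at 43.2, 36.5 and 48.3 CPM in GFP and 77.4, 63.4 and 73.5 CPM in M379 (blocked 0.74 ± 0.10, edgeR adjusted p = 0.0155, against 0.152). PRSS23, a serine protease, was at 64.5, 77.2 and 71.4 CPM in GFP and 107, 134 and 115 CPM in M379 (blocked edgeR adjusted p = 0.0432, against 0.155). PCBP4, an RNA-binding protein gene, was at 6.39, 14.4 and 10.3 CPM in GFP and 21.1, 26.0 and 26.6 CPM in M379 (blocked edgeR adjusted p = 0.0155, against 0.152). The other higher genes were ARSJ, a sulfatase gene (blocked log2 fold change 1.48), the antisense RNA SH3PXD2A-AS1 (1.58) and MSI1. MSI1 encodes Musashi-1, an RNA-binding protein of neural and intestinal stem cells. It had 0, 0 and 1 read in GFP and 14, 7 and 25 in M379, a ratio of 30.6 per effective library size with an exact 95% counting interval of 5.23 to 1236 (blocked edgeR adjusted p = 0.0370, against 0.152). That interval pools the libraries and takes reads as independent, though each mate of a pair counts as a read, so it is too narrow. ANXA6, a calcium-dependent membrane-binding annexin, fell with the block, from 65.1, 57.4 and 54.3 CPM in GFP to 35.4, 22.9 and 28 CPM in M379 (blocked edgeR adjusted p = 0.0333, against 0.373). ENSG00000287781, a gene with no symbol, was at 14.9, 10.9 and 9.73 CPM in GFP and 6.24, 4.55 and 5.65 CPM in M379 (blocked edgeR adjusted p = 0.0370, against 0.142).

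**Figure D3:**
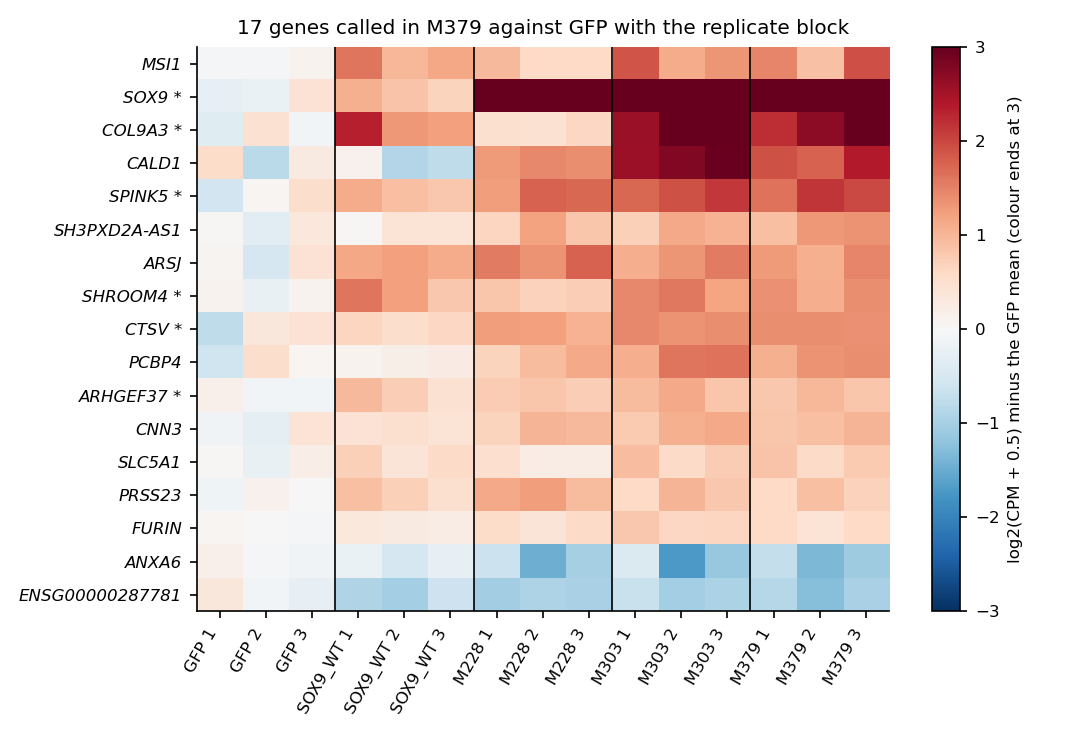
Rows are the 17 genes called with the replicate block, ordered by log2 fold change, and columns are the 15 libraries by group and replicate; an asterisk marks the 6 called without the block. Colour is log2(CPM + 0.5) minus the mean of the 3 GFP libraries, and 15 rows are red and 2 blue in the M379 columns.

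Of 30 gene lists, 28 had at least 5 tested members, and edgeR without the block called a member of the cartilage list alone. DESeq2 called that member, COL9A3, and 6 members of other lists, given with their lists below. Of its 17 genes 6 were tested, with 4 fold changes above 0. COL9A3 rose, COL11A2, another cartilage collagen gene, had the lowest value (-0.57 ± 0.43, edgeR adjusted p = 0.869), and COL2A1 and ACAN did not pass the filter. Among 9 tested members of the SOX family none was called, and 8 were above 0 (median 0.19, against 0.009 over all genes). SOX30, with the highest value, held 4, 9 and 17 reads in GFP and 35, 19 and 33 in M379 (0.94 ± 0.31, edgeR adjusted p = 0.588).

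The lists of intestinal cell states held no edgeR call without the block. The stem cell list (17 tested) had a median of 0.025, with 3 members higher and 0 lower at an unadjusted p under 0.05, which was 3.48% and 3.29% over all genes, and its blocked call was MSI1. Its median was 0.257 without GFP replicate 3 and -0.054 without GFP replicate 2. LGR5, the WNT-linked receptor of crypt stem cells, was at 53.8, 24.4 and 72.1 CPM in GFP and 48.3, 35.3 and 44.3 CPM in M379 (-0.23 ± 0.27, edgeR adjusted p = 0.931). PROM1, a stem-like surface marker, was at 91.8, 44.8 and 55.2 CPM in GFP and 60.7, 45.7 and 47.7 CPM in M379 (-0.29 ± 0.30, edgeR adjusted p = 0.918). The groups overlapped for both genes. The sign of LGR5 turned without GFP replicate 3 (0.18) and that of PROM1 without GFP replicate 1 (0.033). The WNT target list (22 tested, median 0.047) held 3 higher members at an unadjusted p under 0.05. AXIN2, a WNT feedback gene, was at -0.21 ± 0.13 (edgeR adjusted p = 0.799), and APCDD1, a WNT inhibitor, was at 0.91 ± 0.40 (edgeR adjusted p = 0.735).

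The enterocyte list (27 tested, median 0.047) had 4 higher and 0 lower members at an unadjusted p under 0.05 (3.48% and 3.29% over all genes). Its blocked call was SLC5A1, which DESeq2 called without the block (adjusted p = 0.0041). The list's median was 0.258 without GFP replicate 1 and 0.001 without GFP replicate 2. SI, the brush border sucrase-isomaltase, held 4, 7 and 7 reads in GFP and 51, 32 and 21 in M379 (1.89 ± 0.49, edgeR adjusted p = 0.344, 0.0585 with the block). SLC26A3, a chloride exchanger of colonocytes, was at 20.1, 5.62 and 5.69 CPM in GFP and 6.58, 3.25 and 2.26 CPM in M379 (-1.20 ± 0.63, edgeR adjusted p = 0.777). KRT20, a keratin of differentiated colonocytes, was level, at 597, 621 and 703 CPM in GFP and 605, 665 and 652 CPM in M379. Its log2 fold change was 0.00 ± 0.17. CDX2, an intestinal transcription factor, was at 380, 393 and 227 CPM in GFP and 382, 264 and 289 CPM in M379 (-0.09 ± 0.24). Its sign turned without M379 replicate 2 (0.014), GFP replicate 1 (0.005) or GFP replicate 2 (0.047). MKI67, a proliferation marker, overlapped too (0.08 ± 0.24), and turned without M379 replicate 3 (-0.038) or GFP replicate 2 (-0.207). In such bulk libraries fewer cells of a type and less RNA per cell cannot be told apart.

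The goblet cell list was the lowest by its median. Of 11 tested members 10 were below 0, with a median of -0.58. At an unadjusted p under 0.05, 5 were lower (3.29% over all genes), but none was called. MUC2, the main gel-forming mucin of the colon, was at 237, 147 and 148 CPM in GFP and 55.2, 105 and 131 CPM in M379 (-0.86 ± 0.35, edgeR adjusted p = 0.700). All 3 M379 libraries lay below the GFP libraries for MUC2, which was so for 3 of the list's members and for 3.84% of all tested genes. Of the others, REP15 had the lowest value (-1.10), with 74.1% of its exon bases shared with a gene on the opposite strand, and FCGBP the highest (0.09). FCGBP turned below 0 without M379 replicate 3 (-0.014), GFP replicate 2 (-0.083) or GFP replicate 3 (-0.031). Without GFP replicate 2 the list's median was -0.27, and without GFP replicate 3 it was -0.758. Against the same GFP libraries, the goblet median was -0.642 in M228, -0.52 in M303 and -0.196 in SOX9_WT. The Paneth cell list (8 tested) had a median of -0.14, with 0.11 without GFP replicate 2 and -0.562 without GFP replicate 3. LYZ, the lysozyme of Paneth cells, was at 2429, 1404 and 1615 CPM in GFP and 1440, 1096 and 1020 CPM in M379 (-0.62 ± 0.26, edgeR adjusted p = 0.718), with 34.7% of its exon bases shared with an opposite-strand gene.

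The kallikrein and protease list holds mostly serine proteases, with some of their inhibitors, metalloproteases and a protease receptor. Of 21 tested members 6 were higher at an unadjusted p under 0.05, which was 3.48% over all genes. For 6 all M379 libraries lay above all GFP libraries, which was 4.9% over all genes. Without the block edgeR called none of the list, and with it PRSS23. DESeq2, without the block, called PRSS23, KLK6 and TMPRSS4 (adjusted p = 0.00505, 0.00985 and 0.0447). KLK6, a kallikrein protease, was at 4.87, 9.54 and 7.46 CPM in GFP and 14.7, 13.2 and 18.4 CPM in M379 (edgeR adjusted p = 0.193), with 20.5% of its exon bases shared with an opposite-strand gene. TMPRSS4, a membrane serine protease, was at 67.2, 77.2 and 75.2 CPM in GFP and 96.5, 102 and 111 CPM in M379 (0.49, edgeR adjusted p = 0.323). The matrix and integrin list (25 tested) also had 6 higher and 0 lower members at an unadjusted p under 0.05 (3.48% and 3.29% over all genes). Its median of 0.25 came to 0.066 without GFP replicate 2 and 0.539 without GFP replicate 3. COL6A1, a chain of type VI collagen, was at 110, 119 and 109 CPM in GFP and 155, 196 and 165 CPM in M379 (0.61, edgeR adjusted p = 0.244, DESeq2 adjusted p = 0.0364). KLK6, TMPRSS4 and COL6A1 were named after their values were seen.

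In the signalling lists edgeR called no member, with or without the block, and DESeq2 called NOTCH3. MAPK output genes (19 tested) were above 0 in 15 members, as were 8317 of the 16160 tested genes. The list's median was 0.22, against 0.009 over all genes. Against the same GFP libraries it was 0.257 in M228, 0.213 in M303 and 0.185 in SOX9_WT. ETV5, a transcription factor induced by that pathway, had the highest value in M379 (0.70 ± 0.23, edgeR adjusted p = 0.567). NOTCH3, a Notch receptor, was at 11.6, 6.73 and 9.48 CPM in GFP and 15.4, 13.8 and 13.8 CPM in M379 (0.68 ± 0.17, edgeR adjusted p = 0.323, DESeq2 adjusted p = 0.026). The BMP and TGF-beta list (20 tested) had a median of -0.053, with 1 higher and 1 lower member at an edgeR unadjusted p under 0.05. TGFB1, the growth factor, had its lowest value, at 2.74, 6.13 and 4.77 CPM in GFP and 1.75, 2.86 and 2.5 CPM in M379 (-1.03 ± 0.27, edgeR adjusted p = 0.357). LTBP1 had its highest value (0.49 ± 0.18, edgeR adjusted p = 0.641). NFKBIZ, a nuclear regulator of NF-kB with the highest value of its list, was at 21.6, 11.4 and 29.9 CPM in GFP and 32.5, 42.4 and 31.9 CPM in M379 (0.76 ± 0.24, edgeR adjusted p = 0.548). Of 16 tested NF-kB targets 10 were below 0, with a median of -0.054 (0.051 without GFP replicate 2). At an edgeR unadjusted p under 0.05, 3 were lower and 1 higher, against 3.29% and 3.48% over all genes. CCL2, with few reads, had the lowest value (-1.505), and CXCL8 was at -0.959. NOTCH3 and NFKBIZ had no overlap between groups (M379 above GFP in 4.9% of tested genes), while TGFB1 did. Among intestinal transcription factors, FOXA2 was at 10.3, 9.29 and 7.59 CPM in GFP and 5.57, 4.09 and 5.53 CPM in M379 (-0.81 ± 0.20, edgeR adjusted p = 0.340).

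Lists of the translation and respiration machinery moved with GFP replicate 2. All 38 ribosomal protein genes were below 0, with a median of -0.30, and without GFP replicate 2 that median was 0.039. Of 29 nuclear genes of the respiratory chain 28 were below 0, with a median of -0.30 that came to 0.048 without that library. RPS27A was at 527, 1186 and 624 CPM in GFP and 476, 609 and 552 CPM in M379. ATP5ME was at 80.3, 194 and 80.0 CPM in GFP and 79.1, 77.6 and 72.0 CPM in M379, so that for both genes GFP replicate 2 alone was high. ATP5ME shares 61.3% of its exon bases with an opposite-strand gene. The YAP and TEAD target median turned as well, from 0.16 to -0.083, and the unfolded protein response median from -0.092 to 0.10. Cell cycle lists lay close to the all-gene median, at 0.060 for DNA replication (26 tested) and -0.032 for mitosis (24 tested).

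**Figure D4:**
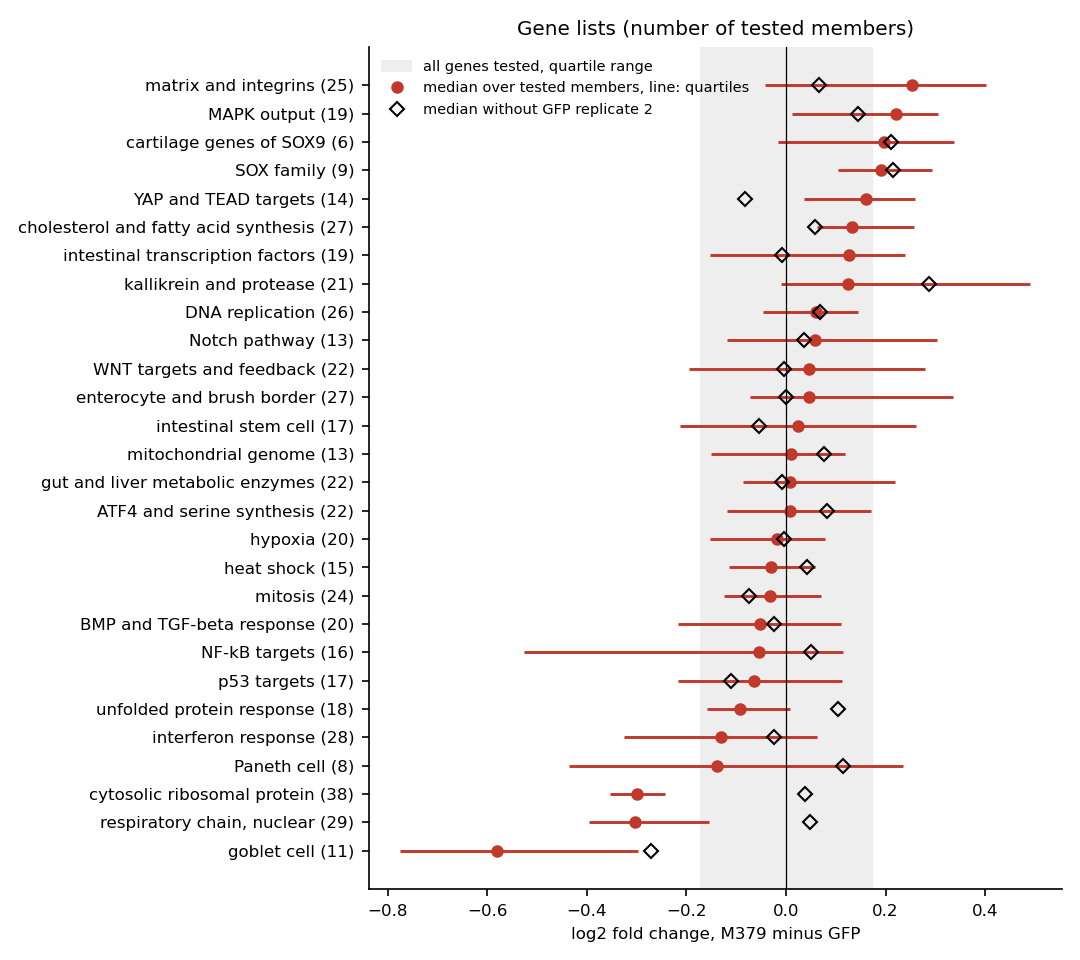
Each row is a gene list with at least 5 tested members (number in brackets), and the horizontal axis is the log2 fold change, M379 minus GFP. Filled points are medians with quartile lines, open diamonds are medians without GFP replicate 2 and the grey band is the quartile range of all tested genes, -0.17 to 0.17; the ribosomal protein and respiratory chain diamonds lie at 0.039 and 0.048.

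The levels of the called genes in the other SOX9 groups, whose comparisons with GFP use the same control libraries, are given side by side. COL9A3 was at 16.5 ± 5.05 CPM in M379 and 19.8 ± 4.15 CPM in M303, but at 3.25 ± 0.22 CPM in M228 and 8.08 ± 4.0 CPM in SOX9_WT (SD, n = 3 each). SPINK5 was at 11.1 ± 2.05 CPM in M379, 11.02 ± 1.63 in M303, 8.64 ± 1.66 in M228 and 5.34 ± 0.67 in SOX9_WT. CTSV was at 11.2 ± 0.20, 11.3 ± 0.38, 9.57 ± 0.76 and 6.26 ± 0.25 CPM in the same order. SHROOM4 was at 8.29 ± 0.99, 8.995 ± 1.26, 5.53 ± 0.34 and 7.98 ± 2.34 CPM, and ARHGEF37 at 28.4 ± 1.95, 30.4 ± 3.34, 26.4 ± 0.96 and 25.6 ± 4.64 CPM. Of these genes COL9A3 alone was called in a direct test of M379 against M228, and none of the 5 was called against M303 or SOX9_WT.

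Against M228, 7 genes were called (0.0433% of those tested), 1 higher and 6 lower in M379, and 6 of the 7 are described here. COL9A3 was higher in M379 by 2.33 ± 0.33 on the log2 scale (edgeR adjusted p = 0.0133). PKIB, an inhibitor of protein kinase A, was at 21.8, 24.2 and 21.04 CPM in M379 and 48.9, 62.0 and 46.4 CPM in M228 (-1.23 ± 0.15, edgeR adjusted p = 0.00645). SERPINE2, a secreted protease inhibitor, was at 24.5, 23.2 and 21.5 CPM in M379 and 45.6, 54.9 and 40.2 CPM in M228 (-1.02 ± 0.15, edgeR adjusted p = 0.0133). NTN4, a netrin of basement membranes, was at 3.02, 3.44 and 4.22 CPM in M379 and 12.2, 15.5 and 16.3 CPM in M228 (-2.04 ± 0.28, edgeR adjusted p = 0.0101). For these 3 genes the M379 libraries overlapped those of GFP, and M379 minus GFP was 0.01, -0.15 and -0.10 in the same order. EHD2, a membrane-trafficking ATPase gene (-1.23 ± 0.18), and ELFN2, a transmembrane protein gene (-1.40 ± 0.23), were lower too (edgeR adjusted p = 0.0133 and 0.0433).

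ELFN2 was the gene among these 6, besides COL9A3, whose M379 libraries all lay above GFP, which was so for 4.9% of all tested genes. It was at 5.84, 2.99 and 4.70 CPM against 2.13, 1.96 and 2.20 CPM (1.10 ± 0.27, edgeR adjusted p = 0.311). The 6 genes were picked with the same M379 libraries. The calls against M228 numbered 4, 1 and 0 without M379 replicate 1, 2 or 3 in turn, and 4, 2 and 3 without M228 replicate 1, 2 or 3. PKIB was kept in 5 of those 6 fits and COL9A3, SERPINE2, NTN4, EHD2 and ELFN2 in 1. These 6 genes kept their direction in all 6 fits. Replicate numbers paired these libraries as well, and with the block 25 genes were called.

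**Figure D5:**
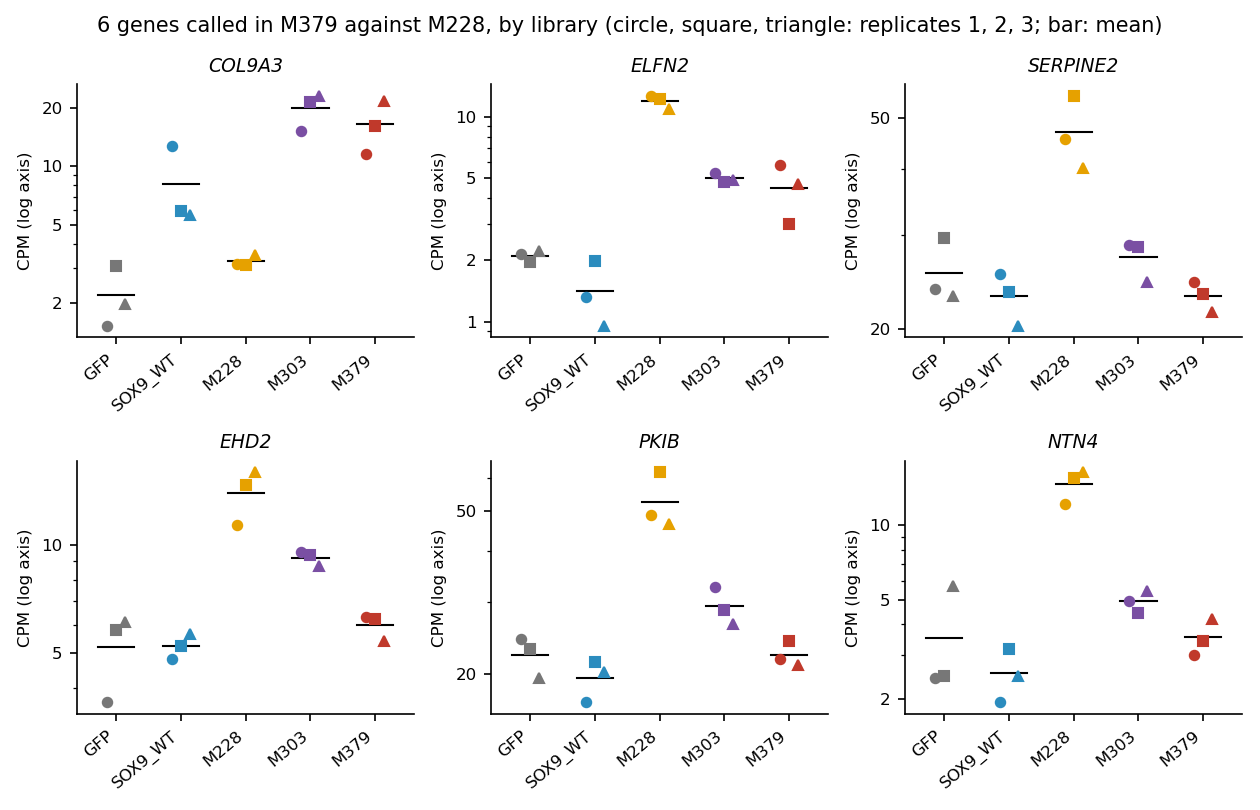
Each panel shows 1 of 6 genes called in M379 against M228, with the TMM-scaled CPM of each library on a logarithmic vertical axis, groups on the horizontal axis, replicates 1, 2 and 3 as circles, squares and triangles and bars at the mean of 3 libraries. COL9A3 is high in M379 and M303, and for the other 5 genes M228 holds the highest mean, such as 52.4 CPM for PKIB against 22.3 CPM in M379.

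No gene was called between M379 and the truncated M303 (0% of those tested) by edgeR, and DESeq2 called 0 too. At an unadjusted p under 0.05 edgeR had 137 genes, 51 higher and 86 lower in M379. A count of 0 at this number of libraries does not show that the mutants act alike. For COL9A3 the difference was -0.26 ± 0.29 and for EHD2, which had the lowest unadjusted p here among the described genes called against M228, it was -0.62 ± 0.18 (edgeR unadjusted p = 0.00275).

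The comparison with SOX9_WT gave 20 calls (0.124%), 10 of them higher in M379 and 10 lower, at a SOX9 level that itself differed by 3.38 ± 0.19 on the log2 scale. Their place relative to GFP is given as values only, because the same M379 libraries picked these genes. Of the 10 higher genes 9, SOX9 among them, lay above all GFP libraries in M379. Of the 10 lower genes 3 lay below them and 7 overlapped. Over all tested genes the shares above and below GFP were 4.9% and 3.84%. Those shares rest on no such choice of genes, so no conclusion is drawn from the difference. CXCR4, a chemokine receptor gene, was at 2.75, 2.73 and 2.44 CPM in M379, within the GFP range of 1.82 to 3.92 CPM, and at 6.21 to 8.03 CPM in SOX9_WT. TMPRSS4 was at 62.9 to 66.8 CPM in SOX9_WT and 67.2 to 77.2 CPM in GFP. Its SOX9_WT minus GFP value was small and not called (-0.19 ± 0.12, edgeR adjusted p = 0.552). SOX9_WT lay wholly below GFP in 833 of the 16160 tested genes. In M379 TMPRSS4 lay above all GFP libraries, also without a call (edgeR adjusted p = 0.323). The number of calls was 5, 3 and 1 without M379 replicate 1, 2 or 3 in turn and 2, 1 and 8 without SOX9_WT replicate 1, 2 or 3.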

How the data were processed

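Poly(A) RNA was captured with oligo(dT) beads and sequenced as 150-bp paired-end reads, per the labels' protocols. The submitters' processing notes name STAR 2.7.0a and hg38. The deposited gene counts are raw, and per the file headers they come from featureCounts 2.0.1 run with Ensembl 101 gene models (GRCh38). That command sets neither a strand nor a paired-end option, so each mate counts as a read and strands are not separated. The deposited normalized table was not used, because 3 of its columns match no sample label. No source used here describes read trimming.

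Library totals ran from 3054755 to 31704249 reads over the series. No 2 replicates agreed within sampling noise. Genes were filtered with filterByExpr, scaled by TMM and fitted with edgeR 4.0.16 quasi-likelihood methods (R 4.3.3) as 1 mean per group over 15 libraries, with 10 residual degrees of freedom. Alternatives used limma 3.58.1 and DESeq2 1.42.0. The series design mentions 6 experiments with 2 replicates, but the labels, which were followed, give 5 groups of 3. Steps were tested on simulated data. CPM values are TMM-scaled, except the levels of the cell type markers and the 3-read limits, which use raw library totals.

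Same-numbered M379 and GFP libraries deviated together from their group means (correlations 0.389, 0.349 and 0.286), as did M379 with M228 and M303 (0.187 to 0.58), but not all with SOX9_WT (lowest 0.07). The labels do not say what a replicate number marks. All comparisons, members and lists were chosen with earlier results of these data known. Named genes were SOX9, called genes whose mean log2 CPM reached 1 and whose groups do not overlap (the 12 highest and 12 lowest against GFP, 5 and 5 otherwise), called list members, list extremes and fixed markers. OLFM4 was on that list and did not pass the filter. A further call against M228 is not reported here.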

Additional observations from a re-analysis of the deposited data

Results flagged for a closer look

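For 6 genes of the naming rule the response to M379 differed from that to M228 by a direct edgeR test at an adjusted p under 0.05. The log2 differences, M379 minus M228, were 2.33 for COL9A3, -2.04 for NTN4, -1.40 for ELFN2, -1.23 for PKIB, -1.23 for EHD2 and -1.02 for SERPINE2. In the same libraries M228 minus GFP was 0.50 for COL9A3, 1.94 for NTN4, 2.5 for ELFN2, 1.24 for PKIB, 1.36 for EHD2 and 0.87 for SERPINE2. SOX9 read levels of M379 and M228 differed by 0.07 ± 0.17.

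For 10 further results of the same rule the response to M379 differed from that to SOX9_WT by the same test. The log2 differences, M379 minus SOX9_WT, were 3.38 for SOX9, 1.65 for ELFN2, 1.30 for HGD, 0.85 for TMEM132A and 0.68 for TMPRSS4. They were -1.83 for APCDD1, -1.70 for TPPP3, -1.47 for PPBP, -1.42 for CXCR4 and -0.98 for ADRA2A. When each library was omitted in turn, the call of SOX9 held in 6 of 6 fits, those of ELFN2, HGD, PPBP, CXCR4 and ADRA2A in 1, and those of TMEM132A, TMPRSS4, APCDD1 and TPPP3 in 0. The SOX9 level and the identity of the protein changed together in this comparison and cannot be told apart.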

How the results depend on the processing

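The 6 calls of M379 against GFP were all higher. By setting, the calls (higher and lower) numbered 3 (3 and 0) with RLE factors, 50 (38 and 12) by DESeq2, 24 (21 and 3) by voom with quality weights, 74 (48 and 26) with no filter on low counts, 1 (1 and 0) with only these 2 groups, 17 (15 and 2) with the replicate block and 3 (3 and 0) with replicates 2 and 3 only. Robust dispersion gave 5. Leaving out 1 library gave 2 to 12 calls, 2 to 10 higher and 0 to 2 lower. Of the 6 genes, DESeq2, the unfiltered fit and the block kept all 6, voom 5, robust dispersion 5, and RLE factors and replicates 2 and 3 only kept 3. M379 against M228 gave 7 calls, and 19 by DESeq2, 34 by voom, 48 with no filter, 25 with the block, 1 with replicates 2 and 3 only and 0 to 4 with a library left out. M379 against M303 gave 0, 1 by voom and 5 with no filter. M379 against SOX9_WT gave 20, and 71 by DESeq2, 707 by voom, 137 with no filter, 156 with only these 2 groups, 106 with the block (these libraries' numbers did not all correlate above 0.1), 1 with replicates 2 and 3 only and 1 to 8 with a library left out. Directions turned for KRT20 (-0.007 with RLE factors and by DESeq2, -0.036 by voom, -0.017 with only 2 groups, -0.004 with the block, -0.021 with replicates 2 and 3 only, -0.051 to 0.076 with a library left out), CDX2 (0.132 by voom, -0.307 to 0.047) and MKI67 (-0.106 by voom, -0.207 to 0.291), and with a library left out for PROM1 (-0.481 to 0.033), LGR5 (-0.59 to 0.181) and FCGBP (-0.083 to 0.375). The causes were not tested. Against GFP the block changed no call beyond the 11 it added. GFP replicate 1, with 3054755 reads, limits genes near 0.982 CPM.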

Other observations

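DESeq2 called 50 genes in M379 against GFP, 38 higher and 12 lower, all from the same counts, and the genes named here were chosen after their values were seen. None of them was called by edgeR with or without the block. DSG3, a desmosomal cadherin, was at 26.5, 9.63 and 22.1 CPM in GFP and 46.2, 41.7 and 46.7 CPM in M379 (DESeq2 log2 fold change 1.24, adjusted p = 0.00155). TLR4, the receptor of bacterial lipopolysaccharide, was at 15.2, 8.86 and 21.1 CPM in GFP and 30.0, 30.3 and 36.3 CPM in M379 (1.08, DESeq2 adjusted p = 0.0047). IL18, a cytokine made by gut epithelium, was at 18.9, 23.1 and 23.4 CPM in GFP and 29.2, 40.3 and 35.7 CPM in M379 (0.66, DESeq2 adjusted p = 0.0447). ACTN1, the actin crosslinker alpha-actinin, was at 169, 144 and 181 CPM in GFP and 233, 213 and 236 CPM in M379 (0.46, DESeq2 adjusted p = 0.0110).

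Among the lower genes, CAMK2N1, an inhibitor of the calcium-dependent kinase CaMKII, was at 14.9, 19.8 and 16.3 CPM in GFP and 10.5, 9.48 and 9.87 CPM in M379 (-0.80, DESeq2 adjusted p = 0.00734). HMGN5, a nucleosome-binding protein gene, was at 3.95, 5.11 and 3.18 CPM in GFP and 1.61, 1.17 and 1.49 CPM in M379 (-1.53, DESeq2 adjusted p = 0.0223). For each of these genes the libraries of the 2 groups did not overlap. Over all tested genes, M379 lay wholly above GFP in 4.9% and wholly below in 3.84%. In DNAJC15, a mitochondrial chaperone gene, GFP replicate 2 stood at 102 CPM against 67.8 and 67.5 in the other GFP libraries and 48.3 to 51.6 in M379 (-0.67, DESeq2 adjusted p = 0.00985).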
